A study of Mus musculus with 6 samples.

Results

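Aldehyde dehydrogenases (ALDH) are described here through 10 genes of the family, ALDH1A3, ALDH1B1, ALDH2, ALDH3A2, ALDH4A1, ALDH5A1, ALDH6A1, ALDH7A1, ALDH9A1 and ALDH18A1, taken by symbol from the 17144 genes listed in the count tables. All 10 were listed, and 8 more symbols that begin with ALDH are given beside them. The samples are 6 RNA-seq libraries from SaOS2, by its label a human osteosarcoma cell line, and the letters C and D of their titles give 2 groups of 3. The series concerns a treatment named DDTC(I), and no label gives its dose or time or says what the letters stand for. Each difference is therefore written as D minus C, and which group was treated is not stated. The comparison addresses which aldehyde dehydrogenase messages differ between the groups.

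Enzymes of this family oxidise aldehydes to carboxylic acids, or to thioesters of coenzyme A, with NAD or NADP as the electron acceptor, most of them through a reactive cysteine in the active site. Each member has a preferred aldehyde, so the family is spread over amino acid breakdown, proline synthesis, lipid turnover and retinoic acid synthesis. The class is known as a target of disulfiram and its metabolites, with mitochondrial ALDH2, the main enzyme of acetaldehyde oxidation, as the classical one. Inhibition of an enzyme is not read by messenger RNA, which is the only quantity measured here.

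Library totals ranged from 18446443 to 20602771 counts, and 12682 genes passed the filter on low counts and were tested. Biological coefficients of variation, the spread that counting noise leaves over, came to 0.0754 for C and 0.193 for D. Whether same-letter libraries came from separate cultures is not labelled, and p-values therefore measure only the spread among these 6, which may be technical. The libraries of D also differed along gene length: a library's deviation from its group mean had a slope on log2 length of 0.0126 for D replicate 1, 0.170 for D replicate 2 and −0.183 for D replicate 3. The label of the line was not borne out by ALPL, the alkaline phosphatase for which SaOS2 is known, which had 8 to 15 counts per library. Messages of RUNX2 (131 to 422 counts) and COL1A1 (85 to 486) of the bone lineage and of RB1 (670 to 1170) were present, and the osteoblast genes SP7, IBSP and BGLAP had at most 3 counts in every library. At an adjusted p under 0.05, 26.8% of all tested genes were called higher in D and 27.7% lower. In the osteoblast list 1 of 7 tested genes was higher and 4 were lower in D. Its summed level was 208.7 to 267.9 CPM in C and 73.3 to 80.4 in D. Among epithelial markers 3 of 4 tested (KRT18, CDH1 and ESRP1) were higher in D. The summed level of the list was 81.1 to 90.7 CPM in C and 125.1 to 159.9 in D, with EPCAM at 2 to 7 counts. Endothelial markers had 0 of 4 higher and 2 lower (sum 20.4 to 25.3 CPM in C, 14.5 to 15.8 in D). Among 6 tested markers of macrophages and osteoclasts, 2 were higher and 1 was lower (538.7 to 556.7 and 509.0 to 558.2 CPM). Most of that sum was CD68, at 486 ± 10.9 CPM in C and 481 ± 21.2 in D (SD). From the same list CD14, CTSK and OCSTAMP did not pass the filter on low counts. Of 7 hematopoietic markers 0 passed the filter on low counts, with PTPRC at 2 to 8 counts (sum 0.717 to 0.924 and 0.226 to 0.364 CPM). These lists are too short for their counts of calls to be set against the shares of all tested genes. The part of these differences in the results below was not tested.

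Of the 10 aldehyde dehydrogenases, 9 passed the filter, 6 fell and 0 rose in D at an adjusted p under 0.05, where 27.7% of all tested genes were called lower and 26.8% higher. The falls were in ALDH18A1, ALDH6A1, ALDH1B1, ALDH5A1, ALDH4A1 and ALDH7A1, and they ranged from 1.32-fold to 2.17-fold. ALDH3A2, ALDH9A1 and ALDH1A3 did not pass the test, and ALDH2 was too low to be tested. The median log2 fold change of the 9 tested members was −0.75, against −0.02 for all tested genes, and 2 members fell at least 2-fold, as did 10.1% of all tested genes. Values below are CPM, counts relative to the library total, scaled between libraries by the trimmed mean of M values (TMM), a level that can be compared between libraries for 1 gene, while levels of different genes are compared as FPKM, which divides by gene length. In bulk RNA, fewer cells that express a gene and less RNA per cell cannot be told apart.

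**Figure D1:**
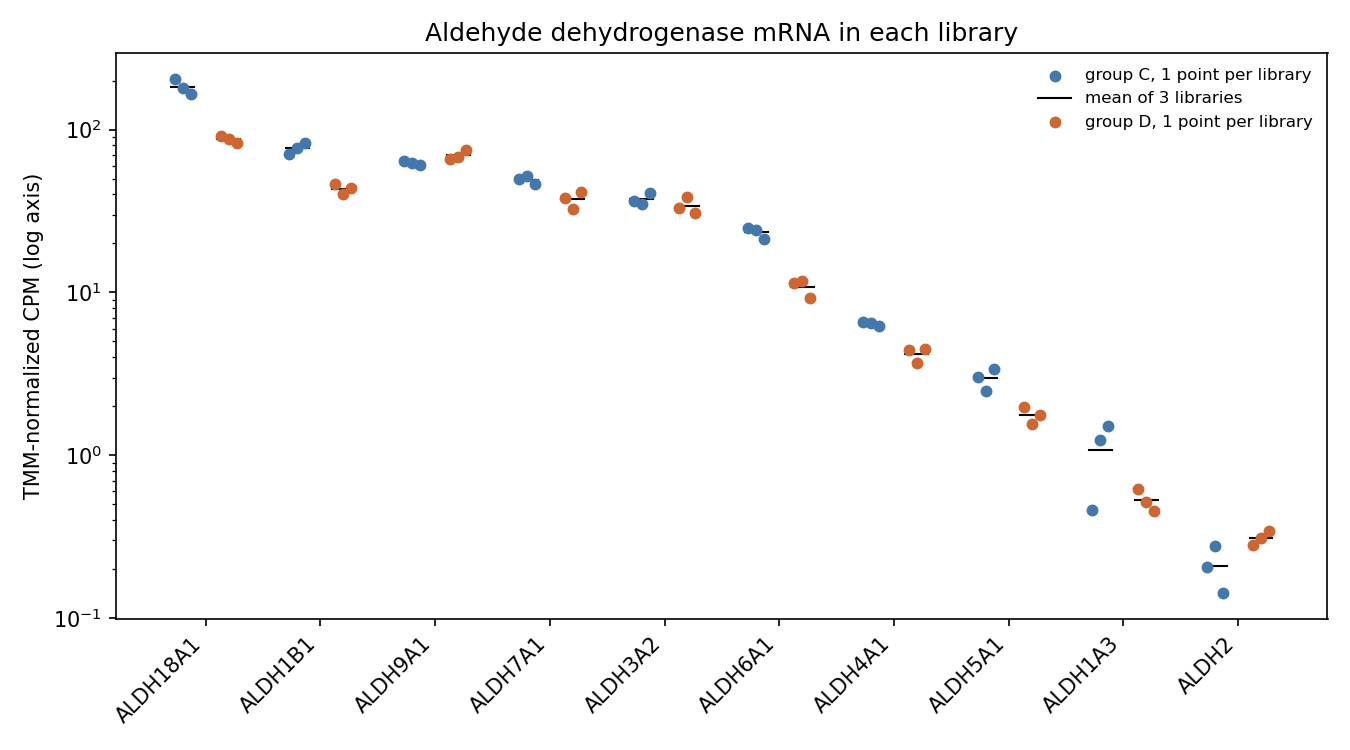
TMM-normalized CPM of the 10 aldehyde dehydrogenase genes (log axis), with 1 point per library in groups C and D and a line at the mean of 3 libraries. For ALDH18A1, ALDH1B1, ALDH7A1, ALDH6A1, ALDH4A1 and ALDH5A1 every D library lies below every C library, while ALDH2 stays under 0.35 CPM in all 6 libraries.

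The 2 members that act in opposite directions between glutamate and pyrroline-5-carboxylate, the branch point of proline and glutamate metabolism, both fell. ALDH18A1 encodes the mitochondrial synthase that makes pyrroline-5-carboxylate from glutamate for proline and ornithine. Its level was 205, 180.1 and 165 CPM in C replicates 1, 2 and 3 and 91.7, 87.5 and 82.6 CPM in D. The lowest C library was well above the highest D library, and the log2 fold change was −1.07 ± 0.11 (SE; adjusted p = 0.00011, edgeR), a 2.10-fold fall. ALDH4A1 encodes the mitochondrial enzyme of the reverse direction, which oxidises pyrroline-5-carboxylate to glutamate during proline breakdown. It had 6.56, 6.47 and 6.21 CPM in C and 4.46, 3.70 and 4.49 CPM in D. The C libraries lay close together and apart from the D libraries, with a log2 fold change of −0.61 ± 0.14 (adjusted p = 0.0069, edgeR). Within a library the synthase exceeded the breakdown enzyme by a log2 FPKM ratio of 4.83, 4.66 and 4.60 in C and 4.23, 4.43 and 4.07 in D. This ratio, which does not depend on the scaling between libraries, was 4.70 ± 0.12 in C and 4.24 ± 0.18 in D (SD, n = 3), lower by 0.46 in D (2-sided exact permutation test, p = 0.1, which is the lowest value 3 against 3 can reach).

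ALDH6A1 fell as well. It encodes methylmalonate semialdehyde dehydrogenase, the mitochondrial enzyme that ends the valine pathway and yields a coenzyme A thioester. The C libraries had 24.8, 24.2 and 21.4 CPM and the D libraries 11.4, 11.8 and 9.20 CPM. The highest D library lay well below the lowest C library, and the log2 fold change was −1.12 ± 0.14 (adjusted p = 0.00023, edgeR), a 2.17-fold fall.

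ALDH1B1 and ALDH2 are closely related mitochondrial enzymes with acetaldehyde among their substrates, and their messages were far apart in level. ALDH1B1 had 70.5, 77.1 and 82.8 CPM in C and 46.2, 40.3 and 43.7 CPM in D. Its groups did not overlap, and it fell by 0.82 ± 0.11 on the log2 scale (adjusted p = 0.00038, edgeR), or 1.77-fold. ALDH2 had 4, 6 and 3 counts in C replicates 1, 2 and 3 and 5, 6 and 6 counts in D, against a floor of 3 counts (0.146 to 0.163 CPM). All 6 libraries thus lay at or close to the floor, no fold change is given, and a difference was not detectable at this depth (adjusted p = 0.41 without the filter on low counts, edgeR). As FPKM, ALDH1B1 was at 26.0 ± 2.16 in C and ALDH2 at 0.0229 ± 0.00737 (SD, n = 3). The gene most often named as the disulfiram target in this family was therefore barely represented in the messenger RNA of these cells.

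ALDH5A1 and ALDH7A1 serve the breakdown of 2 further amino acids and fell by less than 2-fold. ALDH5A1 encodes succinic semialdehyde dehydrogenase of mitochondria, the last step of the breakdown of the transmitter GABA. It was low throughout, at 59, 54 and 72 counts or 3.02, 2.50 and 3.41 CPM in C and 35, 30 and 31 counts or 1.97, 1.56 and 1.76 CPM in D. The groups did not overlap, and the log2 fold change was −0.75 ± 0.20 (adjusted p = 0.012, edgeR). Without C replicate 3 it was −0.65 and just missed the threshold (adjusted p = 0.051, edgeR). ALDH7A1, or antiquitin, oxidises the semialdehyde formed from lysine and is found in both cytosol and mitochondria. It had 49.6, 51.7 and 46.6 CPM in C and 37.9, 32.6 and 41.4 CPM in D. The highest D library, replicate 3, came near the lowest C library, and the log2 fold change of −0.40 ± 0.12 was the smallest of the 6 called (adjusted p = 0.020, edgeR). The call of ALDH7A1 was lost without C replicate 1 (−0.40, adjusted p = 0.067), without C replicate 2 (−0.37, adjusted p = 0.086) and without D replicate 1 (−0.41, adjusted p = 0.060), all in edgeR, while its direction held in each.

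The 3 tested members of the cytosol and the endoplasmic reticulum that remain did not pass the test. ALDH9A1, a cytosolic enzyme of carnitine synthesis that also oxidises aminoaldehydes, had 64.0, 62.3 and 60.9 CPM in C and 66.4, 67.9 and 74.9 CPM in D. It is the 1 tested member with a positive log2 fold change, 0.16 ± 0.10 (95% interval −0.06 to 0.39, adjusted p = 0.20, edgeR), and with scaling by library size only this was 0.01. Its interval holds no fall of the size seen for ALDH4A1. ALDH3A2, the fatty aldehyde dehydrogenase of the endoplasmic reticulum, had 36.4, 35.1 and 40.5 CPM in C and 33.1, 38.6 and 30.7 CPM in D. Its libraries overlapped between groups, D replicate 2 lying within the range of C, and the log2 fold change was −0.13 ± 0.13 (95% interval −0.42 to 0.16, adjusted p = 0.41, edgeR). ALDH1A3, which makes retinoic acid from retinal, had 9, 27 and 32 counts in C replicates 1, 2 and 3 and 11, 10 and 8 in D. The C libraries thus had 0.461, 1.25 and 1.52 CPM and the D libraries 0.621, 0.521 and 0.454 CPM, so C replicate 1 lay among the D libraries and the other two C libraries above them. The log2 fold change of −1.02 ± 0.44 had a wide 95% interval, −2.02 to −0.02, and did not pass (adjusted p = 0.078, edgeR). Without C replicate 1 it was −1.37 and passed (adjusted p = 0.0094, edgeR), so that library decided the call.

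**Figure D2:**
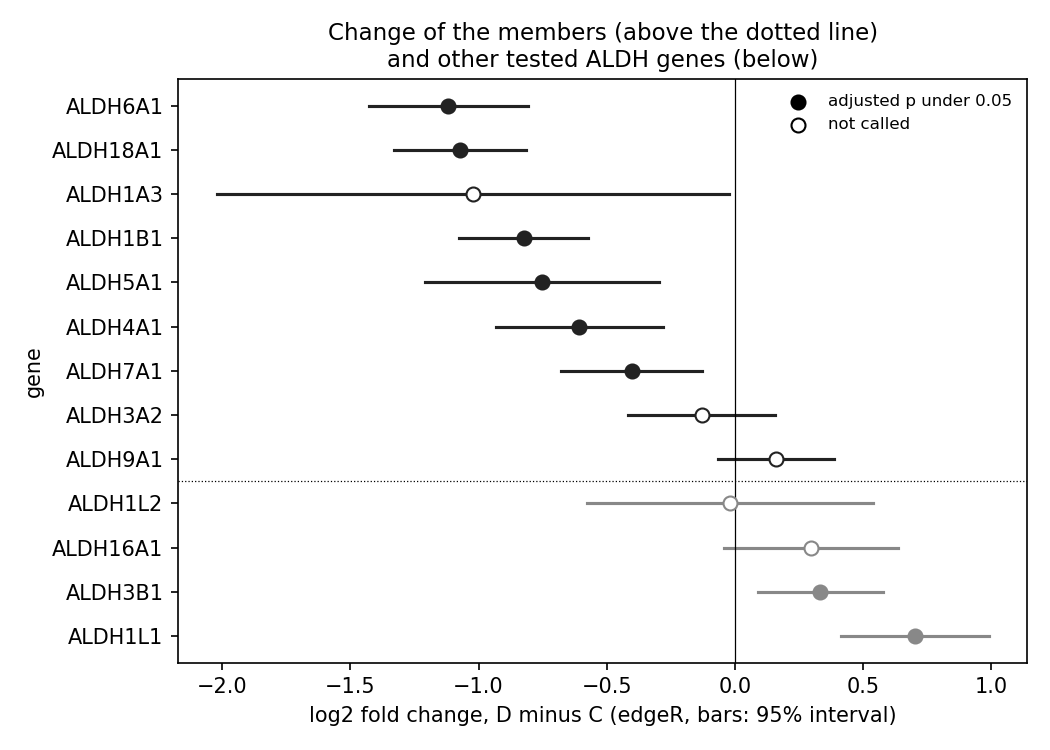
Log2 fold change of D minus C for the 9 tested members (above the dotted line) and 4 other tested ALDH genes (below), with bars for the 95% interval and filled points for an adjusted p under 0.05. The 6 called members lie between −1.12 and −0.40, ALDH1A3 has the widest interval of the 9, and the called genes below the line, ALDH3B1 and ALDH1L1, lie above 0.

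Every D library lay below every C library for 6 of the 9 tested members, as it did for 32.1% of all tested genes, and these were the same 6 that passed the test. For 1 tested member, ALDH9A1, every D library lay above every C library, as it did for 30.6% of all tested genes. All 5 tested mitochondrial members (ALDH1B1, ALDH4A1, ALDH5A1, ALDH6A1 and ALDH18A1) were among the 6 with every D library below every C library. With the trend of each library along gene length removed, 6 members were again lower and 0 higher. The number of members called lower was 5 or 6 under each of the 16 alternatives, which tested 7 to 10 members, and 0 were called higher in any.

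Levels of the members per unit of gene length differed widely. In C the order by FPKM was ALDH18A1 (52.8 ± 5.69), ALDH9A1 (26.1 ± 0.597), ALDH1B1 (26.0 ± 2.16), ALDH7A1 (10.9 ± 0.53), ALDH3A2 (9.89 ± 0.791), ALDH6A1 (4.48 ± 0.329), ALDH4A1 (2.02 ± 0.0516), ALDH5A1 (0.607 ± 0.096), ALDH1A3 (0.327 ± 0.167) and ALDH2 (0.0229 ± 0.00737). The ranges of ALDH9A1 and ALDH1B1 overlapped in C, as did those of ALDH7A1 and ALDH3A2, and the other neighbours were apart. In D the order began with ALDH9A1 (26.2 ± 0.937), followed by ALDH18A1 (22.6 ± 1.78) and ALDH1B1 (13.2 ± 0.901). ALDH3A2 (8.15 ± 1.19) and ALDH7A1 (7.41 ± 0.678) overlapped again, and ALDH6A1 (1.86 ± 0.296), ALDH4A1 (1.20 ± 0.108), ALDH5A1 (0.324 ± 0.0385), ALDH1A3 (0.146 ± 0.0261) and ALDH2 (0.0309 ± 0.00223) kept their places. ALDH18A1 and ALDH9A1 thus exchanged the first place between the groups, with ranges that did not overlap in either. ALDH18A1 ranked above 92.8% of all listed genes in C and above 84.6% in D, and ALDH2 above 16.0% and 16.6%.

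The makeup of the 10 members differed between the groups in every library. The summed FPKM of the 10 members was 137.7, 131.8 and 129.8 in C and 83.0, 81.5 and 78.8 in D. Mitochondrial members, with ALDH7A1 not counted among them, held 65.5%, 64.4% and 63.7% of this sum in C and 50.5%, 48.1% and 46.4% in D. Mitochondrial ALDH1L2 (9.83 ± 1.18 FPKM in C and 8.79 ± 3.45 in D) is not among the 10 and is left out. The share was 64.5 ± 0.93% in C and 48.3 ± 2.09% in D (SD, n = 3), lower by 16.2 percentage points in D (2-sided exact permutation test, p = 0.1, again the lowest possible). ALDH18A1 alone went from 39.6 ± 3.04% to 27.9 ± 1.48% of the sum, while ALDH9A1 went from 19.6 ± 0.159% to 32.3 ± 2.02%. On this scale, which has no TMM factor, ALDH9A1 had 26.1 ± 0.597 FPKM in C and 26.2 ± 0.937 in D, beside the lower sum in D. As TMM-scaled CPM it had 62.4 ± 1.56 in C and 69.8 ± 4.55 in D, with every D library above every C library. Whether its own level added to its larger share therefore depends on the scaling and was not tested.

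**Figure D3:**
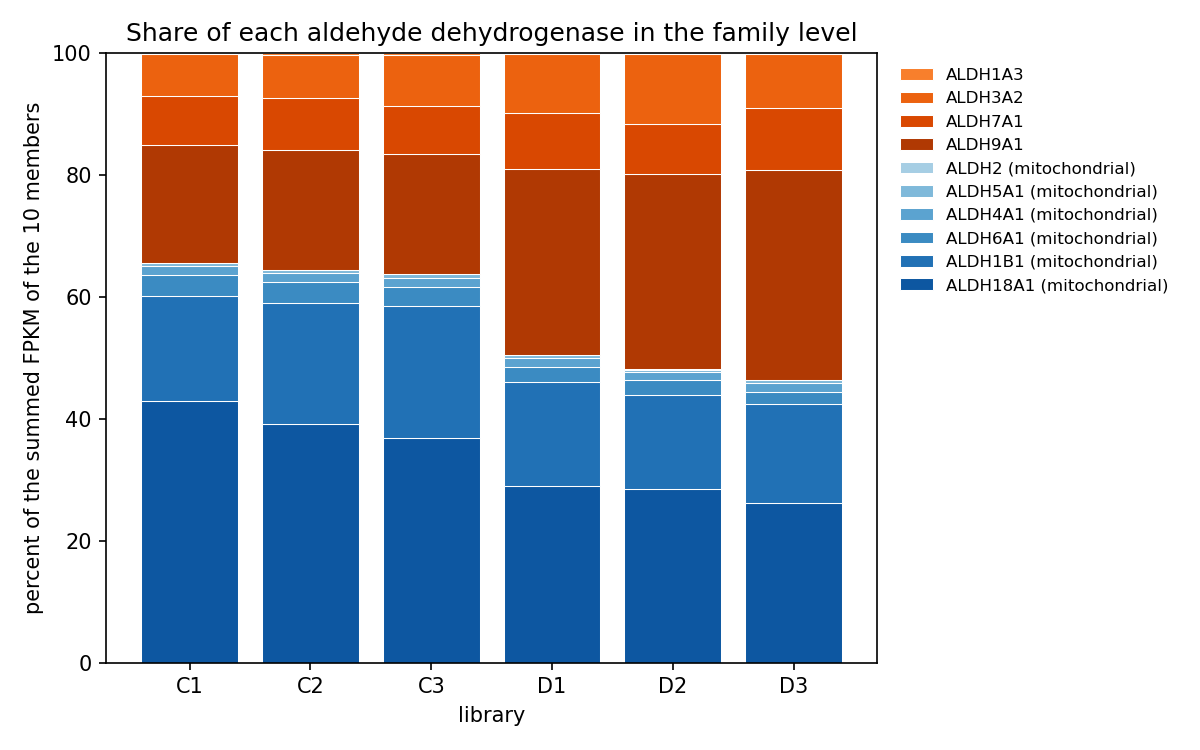
Percent of the summed FPKM of the 10 members held by each gene in each library, with mitochondrial members in blue at the base and the others in orange above. The blue part ends at 63.7% to 65.5% in the C libraries and at 46.4% to 50.5% in the D libraries.

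No fall was called among the other genes of the family. Of 9 further symbols, 8 were listed and 4 were tested, of which 2 rose and 0 fell, against 26.8% higher and 27.7% lower among all tested genes. With 4 genes these counts show little, and the difference from the 10 members was not tested. ALDH1L1, a cytosolic enzyme that oxidises formyltetrahydrofolate, had 13.0, 11.8 and 10.3 CPM in C and 19.4, 19.9 and 17.8 CPM in D, a rise of 0.70 ± 0.13 on the log2 scale (adjusted p = 0.0018, edgeR). ALDH1L2, its mitochondrial counterpart, had 82.2, 65.2 and 78.0 CPM in C and 74.6, 101.2 and 46.6 CPM in D. The D libraries of ALDH1L2 lay on both sides of C (log2 fold change −0.02 ± 0.24, 95% interval −0.58 to 0.54, adjusted p = 0.95, edgeR), and with length trends removed the log2 fold change of this gene, 8057 bp long, was 0.15 (adjusted p = 0.40). ALDH3B1 rose from 23.3 ± 1.12 to 29.3 ± 1.24 CPM (0.33 ± 0.11, adjusted p = 0.027, edgeR). That call was lost with scaling by library size only (0.18) and in limma on each of the FPKM scales (0.16 to 0.18), as well as without C replicate 1 (0.37), C replicate 2 (0.31), C replicate 3 (0.31) or D replicate 1 (0.30). ALDH16A1 had a log2 fold change of 0.30 ± 0.15 that did not pass (adjusted p = 0.12, edgeR), and without D replicate 2 it was 0.47 and passed (adjusted p = 0.0071). ALDH3B2 had 0, 3 and 0 counts in C and 9, 16 and 12 in D, and it did not pass the filter on low counts. Without the filter it passed the edgeR test (adjusted p = 0.0022). ALDH1A1, a widely used stem cell marker, had 1 to 4 counts per library, ALDH1A2 1 to 3 and ALDH8A1 3 to 11.

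Genes of pathways that feed or drain the aldehydes of these enzymes were read from 7 lists holding 103 different symbols. Of 79 tested, 15 rose and 20 fell (19.0% and 25.3%), near or below the shares of all tested genes, so these totals say nothing particular to the lists. Their median log2 fold change was −0.11. With scaling by library size only 31 fell, and without C replicate 2 the number that fell was 13. From each list the called gene with the largest change in each direction is given. Other called genes, and PYCR1, AKR1C2, ADH5, ABAT, RARA, RXRB and CYP26A1, were named after their values were seen.

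**Figure D4:**
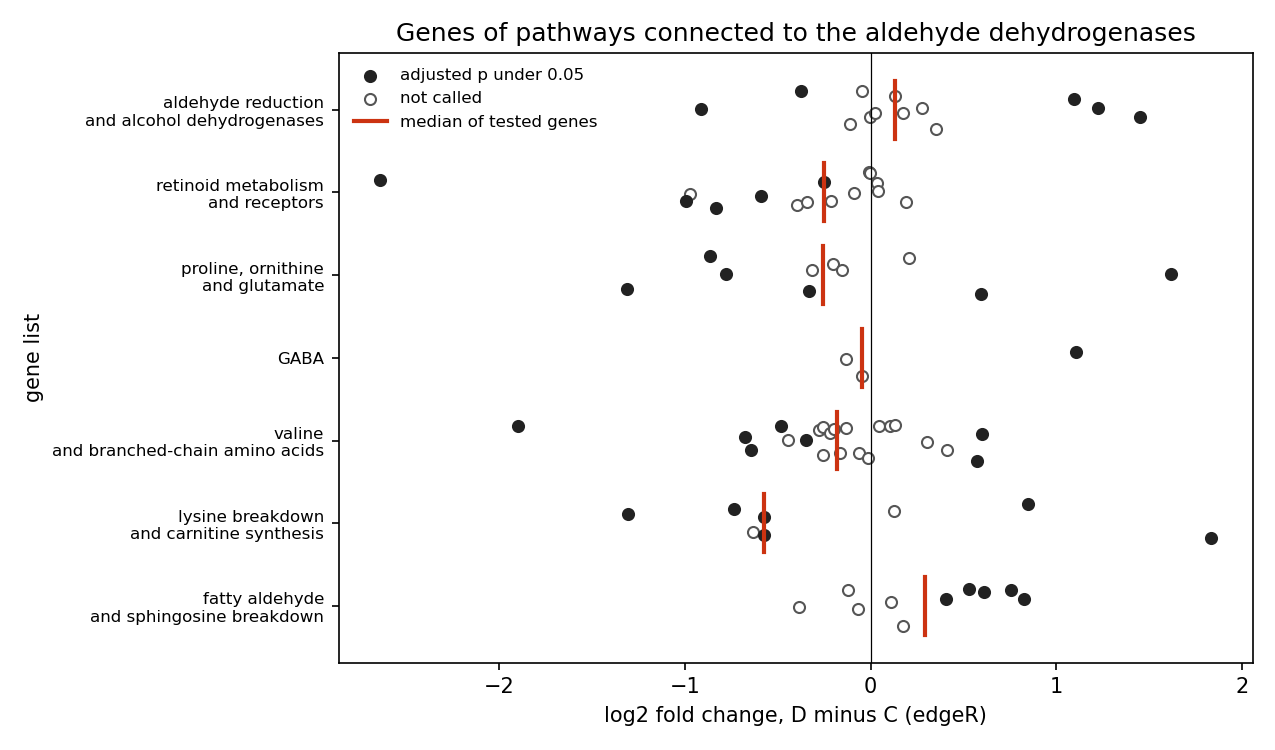
Log2 fold change of D minus C for each tested gene of the 7 connected pathways, with filled points for an adjusted p under 0.05 and a red line at the median of each list. The lowest point is RARB at −2.64 in the retinoid list, and the list of fatty aldehyde and sphingosine breakdown has 5 called genes above 0 and 0 below.

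Around proline and glutamate, 2 of 10 tested genes rose and 4 fell (20% and 40%, against 26.8% and 27.7% of all tested genes; median −0.26). OAT, which makes the same pyrroline-5-carboxylate from ornithine, fell together with ALDH18A1, from 111 ± 7.08 to 61.0 ± 6.23 CPM (−0.86 ± 0.11, adjusted p = 0.00035, edgeR). Among the reductases that turn pyrroline-5-carboxylate into proline, PYCR3 of the cytosol fell by 0.78 ± 0.13, and PYCR1 of mitochondria had a log2 fold change of 0.21 ± 0.12 that did not pass (adjusted p = 0.18, edgeR; 0.35 and passed without D replicate 2). GOT1, the cytosolic aspartate aminotransferase, had the largest rise of the list, from 76.7 ± 3.25 to 235 ± 30.6 CPM (1.62 ± 0.12, adjusted p = 2.3e-05, edgeR). HOGA1, of hydroxyproline breakdown, fell by 1.31 ± 0.36 on the log2 scale (adjusted p = 0.014, edgeR). Its level was low, at 14, 29 and 20 counts in C and 9, 8 and 5 in D. Without C replicate 2, 2 genes of the list fell, and HOGA1 (−1.04) was then not called.

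In the valine and branched-chain list, which holds the steps before ALDH6A1 and the propionate pathway after it, 2 of 22 tested genes rose and 5 fell (9.09% and 22.7%, both below the 26.8% and 27.7% of all tested genes; median −0.18). HIBADH, the dehydrogenase whose product is the substrate of ALDH6A1, fell from 84.5 ± 8.40 to 54.2 ± 7.34 CPM (−0.64 ± 0.13, adjusted p = 0.0035, edgeR). MCEE, the epimerase of methylmalonyl coenzyme A, had the largest fall, from 8.73 ± 1.64 to 2.34 ± 0.455 CPM (−1.90 ± 0.21, adjusted p = 0.00013, edgeR). BCKDK, the kinase that inhibits branched-chain ketoacid dehydrogenase, fell by 0.68 ± 0.11, and BCKDHA, a subunit of that dehydrogenase, rose by 0.57 ± 0.14. The hydratase gene ECHS1 rose by 0.60 ± 0.15. PCCA (−0.48) and ACAT1 (−0.35) were the remaining falls. The call of PCCA was lost without C replicate 1 (−0.43), C replicate 2 (−0.45) or D replicate 1 (−0.40), and with length trends removed (−0.38). ACAT1 lost its call in 5 of 6 fits with a library left out (−0.45 to −0.25 over the 6). Of these fits, the one without D replicate 3 kept it. With scaling by library size only, 11 genes of the list fell.

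The lysine and carnitine list, around ALDH7A1 and ALDH9A1, had 2 of 8 tested genes higher and 4 lower (25% and 50%, against 26.8% and 27.7% of all tested genes; median −0.57). AASS, the first enzyme of the main lysine pathway, fell from 11.6 ± 0.384 to 6.99 ± 0.979 CPM (−0.73 ± 0.14), and DHTKD1, which acts after ALDH7A1, from 34.6 ± 3.41 to 14.0 ± 3.24 CPM (−1.30 ± 0.18). Between them in the pathway, AADAT, an aminotransferase, rose from 4.18 ± 0.626 to 7.53 ± 0.47 CPM (0.85 ± 0.16). The adjusted p was 0.0022, 0.00044 and 0.0020 for these genes (edgeR). TMLHE, the first enzyme of carnitine synthesis, fell by 0.57 ± 0.12, and CRYM, of a second lysine route, rose from 0.407 ± 0.145 to 1.45 ± 0.327 CPM. The carnitine importer gene SLC22A5 had −0.57, a call lost in 5 of 6 fits with a library left out (−0.82 to −0.39 over the 6) and kept in the one without D replicate 1. In the GABA list 1 of 3 tested genes rose and 0 fell, too few to set against the 26.8% and 27.7% of all tested genes. ABAT, which makes the substrate of ALDH5A1, had 5, 4 and 1 counts in C and 15, 28 and 8 in D and did not pass the filter on low counts. Without any of the C libraries in turn, or without D replicate 3, 2 genes of this list rose.

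Of 15 tested retinoid genes, 0 rose and 5 fell (0% and 33.3%, against 26.8% and 27.7% of all tested genes, median −0.25). The share that fell was near that of all tested genes, and the absence of rises was not tested. RARB, a retinoic acid receptor gene known to be induced by retinoic acid, fell from 11.5 ± 0.989 to 1.83 ± 0.224 CPM (−2.64 ± 0.16, adjusted p = 1.1e-05, edgeR). The receptor genes RARG (−0.99 ± 0.10) and RXRA (−0.83 ± 0.11) also fell, while RARA (−0.00 ± 0.15) and RXRB (0.19 ± 0.09) did not pass. The retinal reductase gene RDH13 fell by 0.59 ± 0.14. RDH11 was called at −0.25 ± 0.09 (adjusted p = 0.047, edgeR), a call that was lost in DESeq2 (−0.22) and in each of the 6 fits with a library left out (−0.29 to −0.22). CYP26A1, a retinoic acid hydroxylase also known to be induced by retinoic acid, had 0 or 1 count per library.

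Genes that handle fatty aldehydes and sphingosine, the substrates upstream of ALDH3A2, had 5 of 10 tested higher and 0 lower (median 0.29). These shares, 50% and 0%, stood against 26.8% and 27.7% of all tested genes, and the difference was not tested in this short list. SGPL1, the lyase that releases the fatty aldehyde from sphingosine phosphate, rose from 53.7 ± 3.39 to 90.5 ± 17.9 CPM (0.75 ± 0.15, adjusted p = 0.0033, edgeR). SPHK1, the kinase before it, rose from 111 ± 12.6 to 197 ± 51.0 CPM (0.83 ± 0.18, adjusted p = 0.0050, edgeR). CERS2 (0.61), ACER3 (0.53) and HACL1 (0.41) were the other rises. HACL1 lost its call without C replicate 1 (0.40), C replicate 2 (0.41) or C replicate 3 (0.40), and with scaling by library size only (0.25), and ACER3 lost it in limma on the FPKM scales (0.29 to 0.35). Without D replicate 2, 1 gene of the list fell.

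The list of aldehyde reduction and alcohol dehydrogenases, which also holds ESD, had 3 of 13 tested genes higher and 2 lower. These shares, 23.1% and 15.4%, were both below the 26.8% and 27.7% of all tested genes. The median log2 fold change was 0.13. AKR1B10, an aldo-keto reductase with retinal and lipid aldehydes among its substrates, rose from 22.4 ± 1.85 to 61.1 ± 5.44 CPM (1.45 ± 0.12, adjusted p = 4.1e-05, edgeR). AKR1C1 rose by 1.23 ± 0.13, its near-identical neighbour AKR1C2 had −0.11 ± 0.13, and how reads were divided between these copies is uncertain. CBR3 rose by 1.09 ± 0.20 and CBR4 fell by 0.91 ± 0.11. CBR1 was called at −0.37 ± 0.13, a call lost in 5 of 6 fits with a library left out (−0.47 to −0.23 over the 6) and kept in the one without D replicate 3. ADH5, which oxidises the glutathione adduct of formaldehyde, had 0.17 ± 0.11 and did not pass (adjusted p = 0.20, edgeR; 0.27 and passed without D replicate 2). Without D replicate 2, 6 genes of this list rose.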

How the data were processed

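The authors deposited, for each of 6 libraries, gene counts (whole numbers by gene symbol, not normalized) and FPKM values. Each FPKM equalled the count divided by the library total and by 1 gene length for 17144 of 17144 genes (relative tolerance 0.001), so both files hold the same measurement. How reads were aligned and counted, and whether strand was used, is not given in the sources used here, so reads of antisense or overlapping genes cannot be told apart. Per the submitters' processing notes the builds are GRCm38 and mm10, and the labels name the mouse, but the symbols follow human naming; no coordinates or sequences from the mouse reference were used.

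The count test was run in edgeR 4.0.16 under R 4.3.3 (filterByExpr, TMM, quasi-likelihood F test, 2-sided, group as the only term, Benjamini-Hochberg adjustment over 12682 genes, threshold 0.05). The filter kept 99.952% of the counts. The SE is the log2 fold change divided by the square root of F. Levels are mean ± SD, n = 3. Floors of 3 counts reflect counting error alone, because without molecular identifiers reads are not independent molecules. Alternatives used DESeq2 1.42.0, limma 3.58.1 on log2(FPKM + 1) or log2(FPKM + 0.1), RLE factors, library size only, other filters, a replicate block, length trends removed by lowess (span 0.4) and each library left out. Scripts were tested on simulated data.

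The members and gene lists were chosen with earlier results of these data known. Named genes were all members, the other ALDH symbols, the called gene with the largest change in each direction of each pathway list among genes with a mean FPKM of at least 1 (or, in a list without calls, the gene of lowest p), and RB1, ALPL, RUNX2 and COL1A1. A few genes that the rule or the counts include are not reported here.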

Additional observations from a re-analysis of the deposited data

How the results depend on the processing

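Of the 6 called members, 5 kept their direction in all 16 alternatives; ALDH5A1 kept it wherever it was tested, but limma with the filter on FPKM tested 7 members and left it out. The numbers of members called lower (5 to 6) and higher (0) stayed within the same range. Among all tested genes, 3393 were higher and 3509 lower (49.2% of calls higher). With scaling by library size only these were 2586 and 4449 (36.8%), a scaling that moved the median log2 fold change over all genes from −0.02 to −0.17 and that of the tested members from −0.75 to −0.91. With limma on log2(FPKM + 1) or log2(FPKM + 0.1), 2213 or 2209 genes were higher. Connected pathway genes called lower numbered 20, and 31 with library size only, 31 with limma on log2(FPKM + 1) and 13 without C replicate 2; with a library left out they ranged from 13 to 21. By list, over all alternatives, the numbers lower ranged from 3 to 12 (valine, 5 as reported), 2 to 6 (proline, 4), 1 to 2 (aldehyde reduction, 2) and 0 to 1 (fatty aldehyde, 0), and the numbers higher from 3 to 6 (aldehyde reduction, 3), 2 to 4 (valine, 2), 1 to 2 (lysine, 2), 0 to 2 (GABA, 1) and 1 to 3 (other ALDH genes, 2). Without a library, the difference in the log2 ratio of ALDH18A1 to ALDH4A1 was −0.55 to −0.37 and that of the mitochondrial share −17.3 to −15.2 percentage points. The causes of these shifts were not tested.

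No label says whether the replicate numbers pair the libraries. The correlation of deviations from the group means across genes was 0.0084, −0.397 and −0.365 for numbers 1, 2 and 3. It was 0.423 for C replicate 2 with D replicate 3 and 0.345 for C replicate 3 with D replicate 2. Deviations of these libraries also differed along gene length, so the correlations cannot decide whether libraries were paired. When replicate number entered as a block, 2694 genes were higher and 2977 lower, 5 members were lower (ALDH7A1 −0.41, adjusted p = 0.072, edgeR), and ALDH3B1 also lost its call (0.33, adjusted p = 0.10), as did CBR1 (−0.38), RDH11 (−0.25), ACAT1 (−0.35), PCCA (−0.48), SLC22A5 (−0.59) and HACL1 (0.40). Paired by number, the exact p of the ratio and of the share was 0.25, the smallest that 3 pairs allow. Depth limits ALDH2, ALDH1A1, ALDH1A2 and ALDH8A1, which lay near the floor of 3 counts.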
